A study of Rattus norvegicus with 24 samples.

Results

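Within the 3 lowest doses of a D-serine study in the rat, the quantity followed was the slope of each transcript's level in forebrain over 5, 20 and 50 mg/kg. The 12 arrays labelled with these doses, of 24 in the series, were taken by their labels, 4 arrays per dose. This choice was made with earlier results of these data known, and no vehicle array entered the slope. Each array holds the RNA of 1 male Fisher 344 (F344) rat of 11 to 12 weeks that received D-serine once and was killed 96 h later. About 30 mg of forebrain per animal was used, and the sources used here do not say how the piece was cut. The remaining 12 arrays are of rats of the same strain, sex and age given vehicle, 200 or 500 mg/kg. They entered 1 of the reported comparisons, and for some genes and the control ratios their values are given beside those of the 3 doses.

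D-serine is made in the brain from L-serine by serine racemase and binds the co-agonist site of the NMDA type glutamate receptor, a channel that opens when glutamate and a co-agonist are both bound. It is taken up by neutral amino acid transporters and broken down by D-amino acid oxidase. In forebrain, calcium entry through NMDA receptors is known to switch on immediate-early genes such as Fos and Arc. In the rat, high doses of D-serine are known for kidney injury.

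Intensities of 31099 probe sets were read on Affymetrix rat arrays, and array medians of the 12 lay between 67.8 and 103.8. The levels given are log2(intensity + 16) after quantile normalization over these arrays. The tissue carried forebrain markers, since Camk2a, the calcium and calmodulin dependent kinase of excitatory synapses, averaged 11.54, 11.72 and 11.80 at 5, 20 and 50 mg/kg. The cerebellar granule cell markers Gabra6 and Fat2 lay among the dimmest 40% of probe sets, which were left out. Of the 11 cerebellar genes listed, 8 were kept, so these 2 markers do not stand for the whole list. Of the other 12 arrays, 500 mg/kg replicate 4 stood apart, with a median correlation of 0.916 with the rest of the series, and was left out. Animal numbers in the labels were 267 to 271 at 5 mg/kg, 262 to 266 at 20 mg/kg and 257 to 261 at 50 mg/kg, so an order of handling that followed them cannot be told apart from dose.

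The 12 arrays share a low ratio of 3′ to 5′ signal in the control probe sets of beta-actin, which rises as labelled RNA gets shorter at its 5′ end. On the log2 scale the ratio lay between 1.46 and 1.93 on the 12 arrays, whereas it lay between 2.25 and 2.73 on the vehicle, 200 and 500 mg/kg arrays. For the Gapdh control the ratio lay between 0.098 and 0.56 on the 12 arrays and between 0.41 and 0.96 on the others, so that these ranges overlapped. Low control ratios were known when the 12 arrays were chosen, so this contrast with the other arrays is not separate evidence. Among the 3 doses the beta-actin ratio was 1.68 ± 0.11, 1.59 ± 0.18 and 1.86 ± 0.07 at 5, 20 and 50 mg/kg (SD, n = 4 each), a slope of 0.09 per dose step (exact two-sided permutation test, p = 0.126, adjusted p = 0.126 over 3 controls). The Gapdh control gave 0.19 ± 0.07, 0.18 ± 0.04 and 0.34 ± 0.17, a slope of 0.07 (exact permutation p = 0.0719, adjusted p = 0.108), which was 0.033 without 50 mg/kg replicate 1. The hexokinase control gave 1.51 ± 0.33, 1.62 ± 0.14 and 1.89 ± 0.06, a slope of 0.19 (exact permutation p = 0.0294, adjusted p = 0.0881). Leaving out 5 mg/kg replicate 1 gave the hexokinase control a slope of 0.27 (exact permutation, adjusted p = 0.00026). Each of the other fits that left out 1 array gave it a slope between 0.148 and 0.195 (exact permutation, adjusted p between 0.0722 and 0.191). All 3 control ratios were highest at 50 mg/kg, and their part in the slopes below was not tested beyond the 2 fits that carried a ratio as covariate.

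In the 50 mg/kg group, replicates 1 and 3 stood apart in regional markers. On 50 mg/kg replicate 3, Ttr, the transthyretin of the choroid plexus, read 13.12, and on the other 50 mg/kg arrays it read 6.41, 6.22 and 7.15. On the same array the thalamic markers Slc17a6 and Tcf7l2 read 9.97 and 9.63, while Slc17a6 lay between 7.32 and 7.66 and Tcf7l2 between 6.84 and 7.23 on the other 3. On 50 mg/kg replicate 1 the striatal dopamine receptor Drd1 read 9.35, and on the other 3 it lay between 6.87 and 6.91. That array also had the highest Gapdh ratio of the 12, 0.56.

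No probe set showed a slope over the 3 doses that passed an adjusted p under 0.05. Of 18626 probe sets tested with limma, 0 (0%) passed, and the smallest Benjamini-Hochberg adjusted p was 0.653. An unadjusted p under 0.05 was reached by 1197 probe sets (6.43%), of which 574 had slopes above 0 and 623 below, where 931 would be at that level with no slope anywhere. The split was 323 above and 874 below with median centring, and 68 and 501 with the values as deposited, so the balance of directions depends on the normalization. With quantile normalization kept, it was 392 and 333 with the beta-actin ratio as covariate, and 524 and 520 with the Gapdh ratio. At the gene level, with 1 probe set for each of 10210 genes, 296 genes (2.9%) reached it with a slope above 0 and 277 (2.71%) with a slope below 0. Slopes were centred near 0, with a median of -0.0019 per dose step, 4973 genes above 0 and 5237 below, and 5th and 95th percentiles of -0.13 and 0.12. The median 95% interval reached 0.14 log2 units per dose step to either side, which is the resolution of 4 arrays per dose. Without 50 mg/kg replicate 1 the unadjusted count was 1443 and without replicate 3 it was 1011, with 0 probe sets passing in both.

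**Figure D1:**
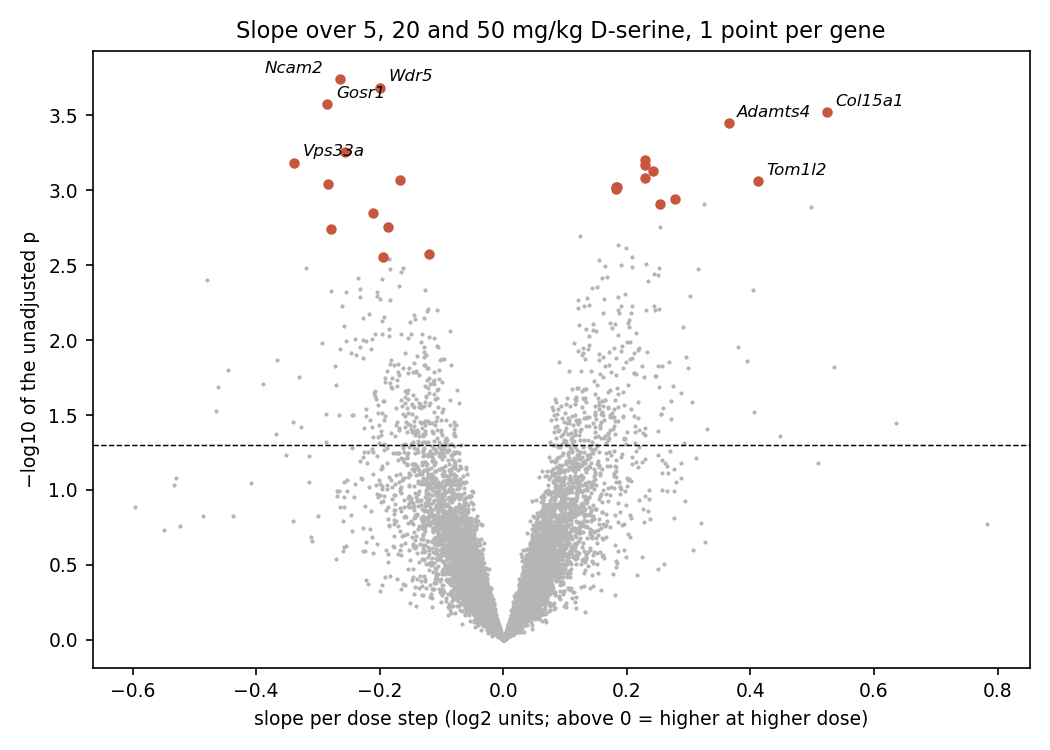
Slope per dose step (x axis, log2 units) against −log10 of the unadjusted limma p-value (y axis) for 10210 genes, 1 grey point per gene, with the 24 leading genes (12 in each direction) in red and a dashed line at the unadjusted threshold of 0.05. Above the line lie 296 genes with a slope above 0 and 277 with a slope below 0.

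Because doses were ranked 1 to 3 with 4 arrays each, a slope rests on the 50 and 5 mg/kg means, and the 20 mg/kg arrays enter its error but not its size. All 50 mg/kg arrays lay above all 5 mg/kg arrays in 191 genes (1.87%) and below them in 171 genes (1.67%). The 3 groups stood in dose order with no overlap at all in 0 genes (0%) upward and 0 genes (0%) downward. The genes described next are the 12 of smallest slope p in each direction, so the sizes of their slopes are selected and likely too large, and none passed.

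Among genes with slopes above 0, the smallest p belonged to Col15a1, which encodes a collagen of basement membrane zones. Col15a1 read 6.71, 5.66, 6.16 and 5.93 at 5 mg/kg, then 6.90, 7.35, 6.98 and 7.04 at 20 mg/kg, and 7.44, 6.94, 7.30 and 6.99 at 50 mg/kg. The 5 mg/kg arrays lay below all others, and the 20 and 50 mg/kg arrays overlapped. Its slope was 0.52 ± 0.11 per dose step (SE, 95% interval 0.28 to 0.77, limma adjusted p = 0.653), a level 2.07-fold higher at 50 than at 5 mg/kg. Nearly all of that lay between the lower doses, with 0.95 ± 0.20 for 20 minus 5 mg/kg (limma adjusted p = 0.9998) and 0.10 ± 0.20 for 50 minus 20 mg/kg (limma adjusted p = 0.926). In a normalization over 23 arrays Col15a1 averaged 6.99 ± 0.36 in vehicle rats, and 6.01 ± 0.44, 6.95 ± 0.19 and 7.04 ± 0.24 at 5, 20 and 50 mg/kg (SD, n = 4 each), so that the 5 mg/kg group was the one away from vehicle.

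Adamts4, a secreted metalloprotease that cleaves proteoglycans of the extracellular matrix, read 7.47, 7.58, 7.72 and 7.69 at 5 mg/kg, then 7.31, 7.76, 8.02 and 7.74 at 20 mg/kg, and 8.11, 8.46, 8.61 and 8.20 at 50 mg/kg. Here the 50 mg/kg arrays stood above all the others, and the lower 2 doses overlapped. Its slope was 0.37 ± 0.08 (95% interval 0.19 to 0.54, limma adjusted p = 0.653). In the 23-array normalization Adamts4 averaged 8.09 ± 0.43 in vehicle rats, and 7.49 ± 0.12, 7.58 ± 0.29 and 8.21 ± 0.23 at 5, 20 and 50 mg/kg. Tom1l2, an adaptor of endosomal sorting, had a slope of 0.41 ± 0.10, but 5 mg/kg replicate 4 read 9.57, within the range of the higher doses, and a second probe set of the gene had a slope of -0.10.

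Other leading genes above 0 had smaller slopes. Map7, which binds microtubules and recruits kinesin-1, had a slope of 0.24 ± 0.06, and its second probe set gave 0.15. Nfasc, the adhesion molecule neurofascin of nodes of Ranvier and axon initial segments, had a slope of 0.18 ± 0.04, with 0.05 to 0.13 in its 3 other probe sets. Hpca, the neuronal calcium sensor hippocalcin, averaged 10.48 ± 0.13, 10.67 ± 0.14 and 10.84 ± 0.16 at 5, 20 and 50 mg/kg. Ppp3cc, a catalytic subunit of the calcium-dependent phosphatase calcineurin, averaged 6.08 ± 0.15, 6.23 ± 0.22 and 6.63 ± 0.13, and Hr, a nuclear corepressor, averaged 7.01 ± 0.23, 7.22 ± 0.21 and 7.52 ± 0.10. The slopes of the other 4, Fam193b, Nxpe3, Cdca4 and LOC100911253, lay between 0.18 and 0.23. Of the 12 genes, 11 had all 50 mg/kg arrays above all 5 mg/kg arrays, which their choice by p largely fixes.

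Ncam2, an adhesion molecule of the immunoglobulin family, had the smallest slope p of all genes. It read 6.81, 6.66, 6.74 and 6.88 at 5 mg/kg, then 6.62, 6.65, 6.68 and 6.72 at 20 mg/kg, and 6.29, 6.18, 6.23 and 6.26 at 50 mg/kg. All 50 mg/kg arrays lay below all others, and the spread within each dose was small (SD 0.09, 0.04 and 0.05). The slope was -0.26 ± 0.05 (95% interval -0.38 to -0.15, limma adjusted p = 0.653), and the 50 mg/kg level was 0.693 times that at 5 mg/kg. In the 23-array normalization Ncam2 averaged 6.30 ± 0.39 in vehicle with single arrays from 5.90 to 6.71, a span that covers nearly the whole range of the 3 doses.

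Wdr5, a core subunit of the complexes that methylate histone H3 at lysine 4, read 8.48, 8.39, 8.43 and 8.43 at 5 mg/kg, then 8.39, 8.41, 8.22 and 8.25 at 20 mg/kg, and 8.14, 8.10, 8.01 and 7.90 at 50 mg/kg. Its 50 mg/kg arrays were again the lowest 4, with a slope of -0.20 ± 0.04 (95% interval -0.29 to -0.11, limma adjusted p = 0.653), while a second probe set of Wdr5 had a slope of 0.01. Gosr1, a SNARE protein of the Golgi, read 9.01, 8.59, 8.87 and 9.10 at 5 mg/kg, then 8.97, 8.77, 8.70 and 8.63 at 20 mg/kg, and 8.37, 8.29, 8.15 and 8.48 at 50 mg/kg. The Gosr1 slope was -0.28 ± 0.06, and 2 other probe sets of the gene gave -0.03 and 0.08.

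The other leading genes below 0 had slopes from -0.34 to -0.12. Vps33a, a subunit of the tethering complexes of endosomes and lysosomes, had a slope of -0.34 ± 0.08, with 3 of its 50 mg/kg arrays between 7.07 and 7.13 and replicate 4 at 7.69. The 3 other probe sets of Vps33a had slopes of -0.0025, -0.04 and 0.0013. Klf7, a zinc finger transcription factor, had a slope of -0.26 ± 0.06, against -0.0145 and -0.08 in 2 further probe sets. Camk1, the calcium and calmodulin dependent kinase I, averaged 8.45 ± 0.15, 8.26 ± 0.03 and 8.08 ± 0.19 at 5, 20 and 50 mg/kg. Gnb2, a G protein beta subunit, had a slope of -0.12 ± 0.03 and 0.0016 in its second probe set, and Rasa3, a GTPase-activating protein for Ras, had -0.19 ± 0.05. Hmgb3, Jmjd8, Vkorc1l1 and Ube3b, the last an E3 ubiquitin ligase, had slopes between -0.28 and -0.17. Thus for 5 of the leading genes below 0 (Wdr5, Gosr1, Vps33a, Klf7 and Gnb2) the other probe sets of the gene did not carry a slope of like size.

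**Figure D2:**
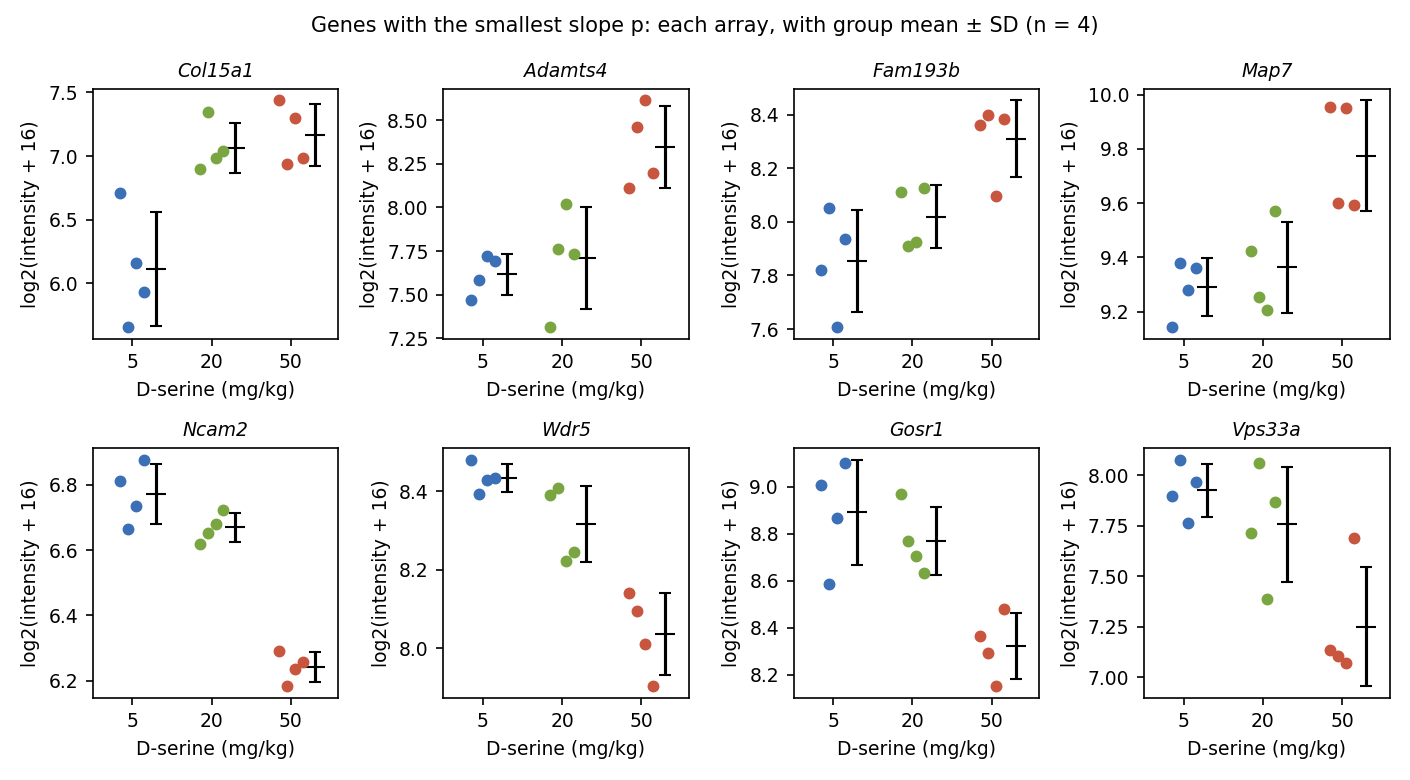
Level on each array (points, log2 of intensity + 16) at 5, 20 and 50 mg/kg D-serine for 8 genes of small slope p, with the group mean ± SD (black, n = 4). In Adamts4, Ncam2, Wdr5 and Gosr1 the 50 mg/kg arrays stand apart from the lower doses, whereas in Col15a1 the 5 mg/kg arrays do.

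The middle dose was examined by its difference from the mean of 5 and 50 mg/kg, called curvature here. Of 18626 probe sets, 0 (0%) passed, with a smallest limma adjusted p of 0.67 and 1036 at an unadjusted p under 0.05. Of the genes, 196 (1.92%) reached that level with 20 mg/kg higher and 279 (2.73%) with 20 mg/kg lower. All 20 mg/kg arrays lay below all other arrays in 24 genes (0.235%) and above them in 13 (0.127%).

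Kdm6b, the demethylase that removes methyl groups from histone H3 lysine 27, read 7.52, 7.43, 7.37 and 7.65 at 5 mg/kg, then 7.32, 6.54, 7.13 and 6.99 at 20 mg/kg, and 7.69, 7.73, 7.77 and 7.63 at 50 mg/kg. The 4 arrays of 20 mg/kg were the lowest 4, with a curvature of -0.60 ± 0.12 (limma adjusted p = 0.67). Nts, the precursor of the neuropeptide neurotensin, read 5.76, 7.79, 6.52 and 7.29 at 5 mg/kg, then 6.14, 5.67, 5.89 and 6.45 at 20 mg/kg, and 7.36, 8.63, 8.55 and 7.90 at 50 mg/kg. The 50 and 20 mg/kg arrays of Nts did not overlap, and the 5 mg/kg arrays spread across both. Plcd1, a phospholipase C, had a curvature of -0.39 ± 0.09 with all 20 mg/kg arrays below the rest.

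Fos, the immediate-early transcription factor, was the fourth gene by curvature. It read 7.49, 7.95, 7.06 and 7.09 at 5 mg/kg, then 7.35, 6.35, 6.89 and 6.50 at 20 mg/kg, and 7.65, 7.48, 7.90 and 7.70 at 50 mg/kg, a curvature of -0.77 ± 0.19 (limma adjusted p = 0.864) and a slope of 0.14 ± 0.15 (limma adjusted p = 0.903). In vehicle Fos ranged from 6.42 to 7.83 in the 23-array normalization, which spans the group means of all 3 doses. Of 16 measured immediate-early genes, 14 had a curvature below 0, with a median of -0.22 where the median of all genes was 0.0004, and 5 of them (Fos, Egr1, Arc, Nr4a1 and Dusp6) reached an unadjusted p under 0.05, set against 2.73% of all genes. Arc, which acts in synaptic plasticity, averaged 8.49 ± 0.49, 8.16 ± 0.37 and 8.75 ± 0.10 at 5, 20 and 50 mg/kg, and Egr1 averaged 11.19 ± 0.27, 10.68 ± 0.30 and 10.97 ± 0.03. The mean of the 16 genes was 8.32, 7.82, 8.11 and 7.80 on the 20 mg/kg arrays, and 8.03 to 8.40 at 5 mg/kg. At 20 mg/kg only replicates 2 and 4 thus lay below the 5 mg/kg range. These genes are known to be switched on together within an animal, so they are not independent, and 0 of the 16 passed. Their median slope was 0.02 (-0.0023 to 0.07 with 1 array left out), with 10 above 0 and 6 below.

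**Figure D3:**
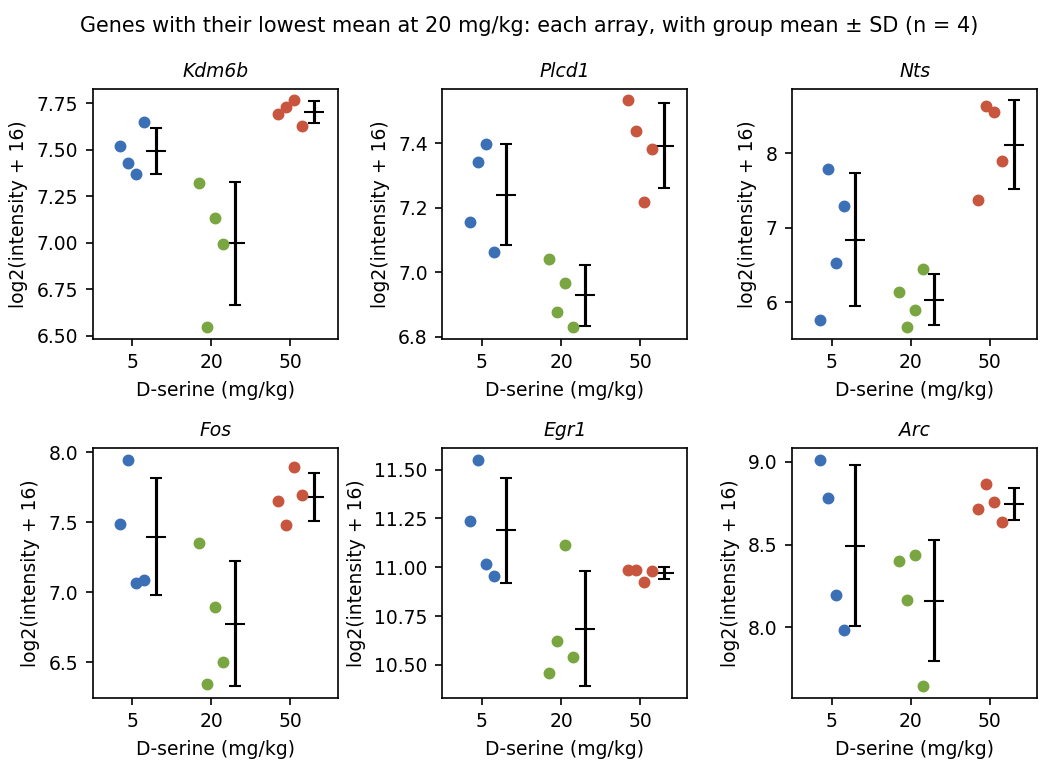
Level on each array (points, log2 of intensity + 16) at 5, 20 and 50 mg/kg for 6 genes whose mean was lowest at 20 mg/kg, with the group mean ± SD (black, n = 4). The 20 mg/kg arrays of Kdm6b and Plcd1 lie below all others, and those of Fos, Egr1 and Arc overlap with other doses.

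Taken dose by dose, the step from 20 to 50 mg/kg held more small p values than the step from 5 to 20 mg/kg, and neither gave a call. For 50 against 20 mg/kg, 0 probe sets passed (0%) with a smallest limma adjusted p of 0.158, and 1645 (8.83%) had an unadjusted p under 0.05. For 20 against 5 mg/kg, 0 passed (0%) with a smallest adjusted p of 0.9998, and 547 (2.94%) were at that level. The smallest p of 50 against 20 mg/kg belonged to Nts, at 2.07 ± 0.37 (SE, limma adjusted p = 0.158). Wscd1 averaged 9.22 ± 0.21 at 50 mg/kg against 8.71 ± 0.06 at 20 mg/kg, and Cpsf7, a subunit of the cleavage factor that sets polyadenylation sites, averaged 9.05 ± 0.14 against 8.61 ± 0.08. Nap1l1, a histone chaperone, averaged 9.84 ± 0.10 at 20 mg/kg against 10.11 ± 0.06 at 5 mg/kg, with all 4 arrays below. Gnb3, another G protein beta subunit, averaged 7.25 ± 0.11 at 20 mg/kg against 6.69 ± 0.20 at 5 mg/kg. The F test of any difference among the 3 doses gave 0 (0%), with a smallest adjusted p of 0.362 and 1235 probe sets at an unadjusted p under 0.05. The comparisons share arrays, so their lists are not separate evidence.

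Genes that make, move or degrade D-serine and its precursor came next, with 11 of 18 listed genes measured above the filter. In this list 7 slopes were above 0 and 4 below, with a median of 0.02, and 0 of the 11 passed. The median lay between 0.01 and 0.04 in 12 fits that each left out 1 array, and ranges given after the medians of other lists are of the same kind. With median centring the median of this list was -0.0132. Slc1a4, a transporter of neutral amino acids that include serine, averaged 7.19 ± 0.48, 7.30 ± 0.40 and 7.43 ± 0.13 at 5, 20 and 50 mg/kg, a slope of 0.12 with a 95% interval of -0.11 to 0.34. Slc7a10, the exchanger Asc-1 that carries D-serine, averaged 7.12 ± 0.21, 7.26 ± 0.14 and 7.32 ± 0.35, a slope of 0.10 (interval -0.06 to 0.26). Phgdh and Psat1, the first enzymes of serine synthesis, had slopes of -0.05 (interval -0.18 to 0.09) and 0.02 (interval -0.08 to 0.11), and Psph, which makes serine in the last step, had 0.08 (interval -0.04 to 0.20). For these genes a slope beyond about 0.34 per dose step lies outside every interval. Srr is unnamed on the array as annotated here, and Dao was below the filter.

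Of 8 NMDA receptor subunit genes, 5 were measured above the filter and 0 passed. Grin1, the subunit that binds the co-agonist, read 9.16, 9.15, 9.42 and 9.12 at 5 mg/kg, then 9.22, 9.13, 9.10 and 8.88 at 20 mg/kg, and 8.77, 9.02, 9.05 and 9.02 at 50 mg/kg. Its 50 mg/kg arrays lay below its 5 mg/kg arrays, with a slope of -0.12 ± 0.05 (limma adjusted p = 0.756), and a second probe set gave 0.03. Grin2a, a glutamate-binding subunit, had a slope of 0.17 ± 0.08 (limma adjusted p = 0.776), with 50 mg/kg replicate 1 at 8.98 and the other 3 arrays of that dose between 9.62 and 9.95. Grin2b had a slope of 0.03 ± 0.06 and the median of the list was 0.03, with 4 above 0. That median ranged from 0.02 to 0.07, the highest without 50 mg/kg replicate 3.

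The other receptor and synapse lists also held 0 genes that passed and medians close to 0. The 13 AMPA and kainate receptor genes had a median slope of -0.0006 (range -0.03 to 0.02), and the members of smallest p were the auxiliary proteins Cnih2 at 0.21 ± 0.07 and Cacng3 at -0.19 ± 0.09, in opposite directions. The 7 metabotropic glutamate receptor genes and their scaffolds had a median of -0.02 (range -0.04 to -0.02), with the scaffolds Homer3 at 0.22 ± 0.13 and Homer1 at -0.10 ± 0.07. The 8 GABA-A receptor subunits had -0.0076 (range -0.02 to 0.01), with Gabra3 at -0.22 ± 0.08 and Gabrb1 at 0.09 ± 0.07. Postsynaptic scaffolds and CaMKII (14 genes) had a median of -0.0014 (range -0.02 to 0.04), with 7 slopes above 0 and 7 below. Single slopes ran from -0.15 to 0.13, and the members of smallest p were the kinase subunits Camk2a at 0.13 ± 0.05 and Camk2b at 0.09 ± 0.04. Synaptic vesicle genes (18) had -0.04, with a range of -0.05 to -0.0147, the end nearest 0 without 50 mg/kg replicate 1. In that list the syntaxin Stx1a had -0.17 ± 0.08 and the phosphatase Synj1 had 0.15 ± 0.06. Neurotrophins and their receptors (5) had a median of 0.02 (range -0.0123 to 0.05), with the receptor Ntrk3 at 0.21 ± 0.10, and Bdnf averaged 7.31 ± 0.54, 7.29 ± 0.44 and 7.22 ± 0.21 at 5, 20 and 50 mg/kg.

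Marker lists of cell types and brain regions had the medians farthest from 0, and single arrays stood out in several of them. All 13 striatal projection neuron genes had slopes below 0, with a median of -0.24. Tac1, the precursor of substance P, read 7.07, 6.08, 8.45 and 9.31 at 5 mg/kg, then 6.58, 6.05, 6.85 and 8.99 at 20 mg/kg, and 8.52, 5.37, 6.54 and 5.71 at 50 mg/kg, a slope of -0.60 ± 0.37 (limma adjusted p = 0.835). The mean level of the list ran from 7.40 to 9.21 at 5 mg/kg, from 7.51 to 9.23 at 20 mg/kg and from 7.31 to 9.38 at 50 mg/kg, so every dose held arrays of high and of low striatal signal. The highest of the 12 was 50 mg/kg replicate 1, and without it the list's median slope was -0.48, while without 50 mg/kg replicate 2 it was -0.16 and without 5 mg/kg replicate 2 it was -0.38. The dopamine receptor Drd2 had a slope of -0.53 ± 0.30. In bulk tissue, fewer cells of a type and less RNA per cell cannot be told apart. The share of striatum in each piece was not measured separately, and its part in other slopes was not tested.

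All 7 thalamic neuron genes had slopes above 0, with a median of 0.15, which was 0.01 without 50 mg/kg replicate 3 and 0.26 without 5 mg/kg replicate 4. The mean of this list was 8.84 on that array and lay between 7.10 and 7.55 on the other 11. The 4 choroid plexus genes had a median of 0.21 (3 above 0), and 0.03 without the same array, with Ttr at a slope of 0.78 with it and -0.05 without it. The thalamic and choroid medians thus rested largely on 1 animal. Single choroid genes did not all do so. Prlr, with a slope of 0.15, and Folr1, with 0.27, changed sign in 0 of 28 alternative settings each.

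All 13 myelin genes had slopes above 0 with a median of 0.20, 4 of them at an unadjusted p under 0.05 and 3 with all 50 mg/kg arrays above all 5 mg/kg arrays, set against 2.9% and 1.87% of all genes. The myelin median ranged from 0.14, without 50 mg/kg replicate 3, to 0.24. Fa2h, the fatty acid hydroxylase of myelin lipids, read 8.10, 8.14, 8.19 and 8.04 at 5 mg/kg, then 7.81, 8.28, 8.23 and 8.10 at 20 mg/kg, and 8.36, 8.54, 9.10 and 8.49 at 50 mg/kg, a slope of 0.25 ± 0.08 (limma adjusted p = 0.734). Ermn, a protein of the oligodendrocyte cytoskeleton, averaged 8.63 ± 0.10, 8.52 ± 0.33 and 9.14 ± 0.34, a slope of 0.25 ± 0.10. Mbp, among the brightest of the list, had a slope of 0.03 ± 0.04, and its 2 other probe sets gave 0.18 and 0.26. The mean of the list was 9.55 ± 0.13, 9.46 ± 0.35 and 9.96 ± 0.37 at 5, 20 and 50 mg/kg (SD, n = 4 each), and all 13 curvatures were below 0. On 20 mg/kg replicate 1 the list mean was 8.94, against 9.59 to 9.67 on the others of that dose. On 50 mg/kg replicate 3 it was 10.49, against 9.63 to 9.91 on the others. How far the curvatures rest on these arrays was not tested. In the 23-array normalization the vehicle arrays of Mog, a myelin surface protein, ranged from 8.73 to 10.36, wider than the difference between any of the 3 dose means. The list named for oligodendrocyte precursors had 4 of 5 slopes above 0, the lowest at -0.0122, and a median of 0.09 (range 0.06 to 0.17). Its members of smallest p were Olig1 at 0.21 ± 0.07 and Bcas1 at 0.30 ± 0.11. Of the listed genes, Gpr17 and Neu4 were unnamed on the array as annotated here, and Olig2 was below the filter. The measured members do not tell precursors apart from later oligodendrocytes.

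**Figure D4:**
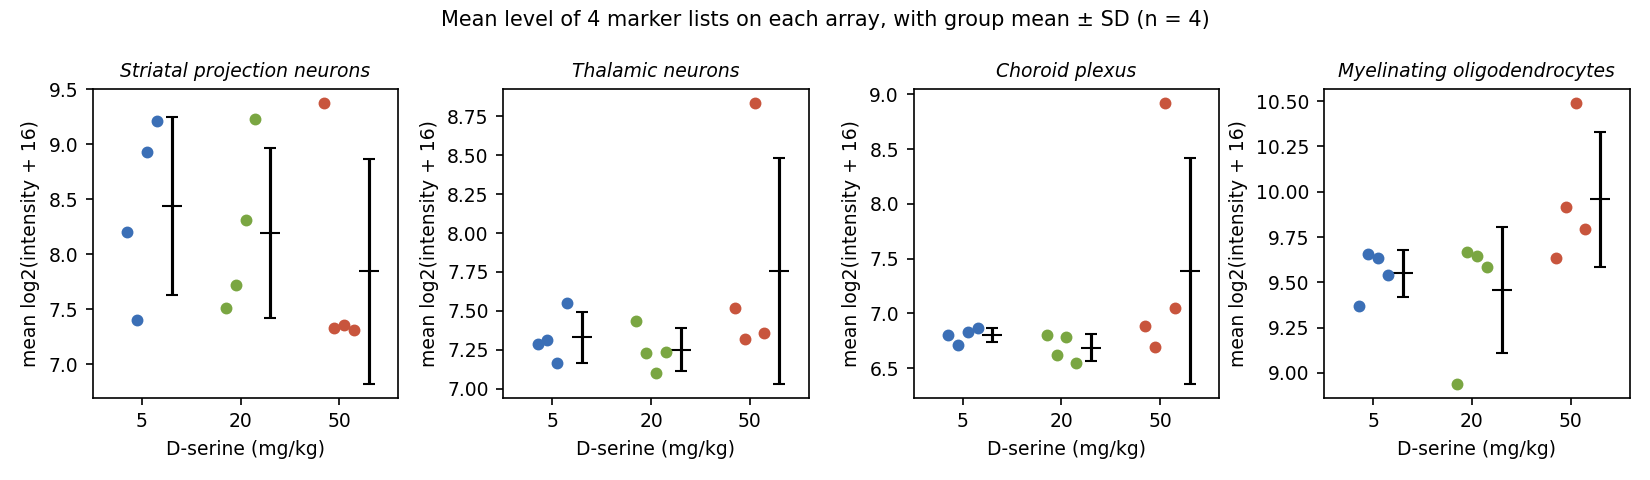
Mean level of the measured genes of 4 marker lists on each array (points, log2 of intensity + 16) at 5, 20 and 50 mg/kg, with the group mean ± SD (black, n = 4). Striatal signal is spread widely within every dose, and 1 array of 50 mg/kg alone is high for thalamus and choroid plexus.

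Excitatory neuron genes had 9 of 13 slopes above 0 and a median of 0.06, which was 0.03 without 5 mg/kg replicate 4. Prox1, a transcription factor of dentate granule cells, read 7.29, 7.22, 7.08 and 7.27 at 5 mg/kg, then 8.13, 7.39, 7.41 and 7.28 at 20 mg/kg, and 7.36, 8.43, 8.93 and 8.14 at 50 mg/kg, a slope of 0.50 ± 0.13 (limma adjusted p = 0.686). At 50 mg/kg 3 arrays were high and replicate 1 lay just above the 5 mg/kg arrays, within the range of the 20 mg/kg arrays. Neurod1, another factor of granule neurons, had 0.38 ± 0.13, with the same replicate the lowest of its dose at 7.15, whereas Slc17a7, the main vesicular glutamate transporter of cortex, had -0.04 ± 0.06. GABAergic genes had 9 of 10 slopes below 0 and a median of -0.11, with Gad1 and Gad2, which make GABA, at -0.17 ± 0.10 and -0.19 ± 0.11. A second, dimmer probe set of Gad1 had a slope of -0.35 ± 0.11. The GABAergic median was -0.07 without 50 mg/kg replicate 3 and -0.13 without replicate 1. On replicate 1, the array of highest striatal signal, Gad2 read 8.16, against 7.46 to 7.55 on the others of its dose. The part of striatal tissue in the GABAergic slopes was not tested. The 8 cerebellar genes that were measured had a median of 0.04 (range -0.0136 to 0.08), with the Purkinje cell gene Pcp2 at -0.12 ± 0.08. The 5 hypothalamic and midbrain genes had -0.03 (range -0.09 to 0.0138), with the dopamine transporter Slc6a3 at -0.18 ± 0.11 and the vesicular monoamine transporter Slc18a2 at 0.10 ± 0.07.

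The other glial lists and the vascular lists had medians nearer 0 than the striatal, thalamic, choroid plexus and myelin lists. All 11 microglial genes were below 0 with a median of -0.06, which was -0.09 without 50 mg/kg replicate 1 and -0.03 without replicate 3. The complement gene C1qa read 9.36 on 50 mg/kg replicate 1 against 8.53 to 8.61 on the other 3 arrays of that dose, and its partner C1qb had a slope of -0.09 ± 0.08. Resting astrocyte genes (11) had a median of -0.02 (range -0.04 to 0.0075), with the glutamate transporter Slc1a3 at -0.09 ± 0.04. Reactive astrocyte genes (6) had -0.08, which was -0.13 without 50 mg/kg replicate 1, -0.05 without replicate 3 and -0.0105 without replicate 4. Among the reactive genes the protease inhibitor Timp1 had -0.23 ± 0.08, while the small heat shock protein gene Hspb1 had 0.22 ± 0.09 and Gfap had 0.19 ± 0.11.

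Endothelial genes (12) had 8 slopes below 0, 4 above and a median of -0.04, which was -0.0145 without 50 mg/kg replicate 4. The 2 of smallest p pointed in opposite directions. The tight junction gene Cldn5 had -0.20 ± 0.06, with all of its 50 mg/kg arrays below its 5 mg/kg arrays, and Kdr, a receptor of the growth factor VEGF, had 0.21 ± 0.09 and averaged 6.55 ± 0.37, 6.65 ± 0.26 and 6.97 ± 0.13 at 5, 20 and 50 mg/kg. Smooth muscle and pericyte genes (9) were nearly evenly divided, with 4 slopes above 0 and 5 below, from -0.16 to 0.12. Their median was -0.09, which was -0.012 without 50 mg/kg replicate 4, with the potassium channel Kcnj8 at -0.16 ± 0.09. All 10 meningeal fibroblast genes were below 0 with a median of -0.10 (range -0.15 to -0.08), among them the collagen Col3a1 at -0.21 ± 0.12. Ependymal genes (3) had a median of 0.10, which was 0.03 without 50 mg/kg replicate 1, and blood genes (3) had 0.13, which was 0.0036 without 5 mg/kg replicate 3. The beta globin gene Hbb had 0.13 ± 0.12 and Alas2, the heme synthesis enzyme of red cells, had 0.15 ± 0.13.

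Metabolic and stress lists had medians within 0.04 of 0 with quantile normalization. Glycolysis genes had 12 of 14 slopes below 0 and a median of -0.03, with 4 at an unadjusted p under 0.05, set against 2.71% of all genes. Among them were Gpi at -0.08 ± 0.03 and the enolase Eno1 at -0.10 ± 0.04. Oxidative phosphorylation genes had 17 of 21 below 0 and a median of -0.03, which was -0.0116 without 50 mg/kg replicate 1, with the cytochrome oxidase subunit Cox5a at -0.15 ± 0.07. Cytosolic ribosomal protein genes had 8 of 11 below 0 and a median of -0.02 (range -0.04 to -0.0008), with Rpl3 at -0.09 ± 0.03. Proteasome genes had 16 of 23 below 0 and a median of -0.0138, which was -0.0068 without 50 mg/kg replicate 1. The catalytic subunit genes Psmb5 and Psmb7 had slopes of -0.15 ± 0.05 and -0.08 ± 0.04, and 4 of the 23 had all 50 mg/kg arrays below all 5 mg/kg arrays, set against 1.67% of all genes.

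Chaperones (18) had a median of 0.02 (range 0.0032 to 0.03), with Hspb1 the member of smallest p. NRF2 and glutathione genes (16) had -0.0147 (range -0.03 to -0.0061), with the glutathione synthetase Gss at -0.14 ± 0.07, and glucocorticoid-responsive genes (11) had 0.03 (range -0.02 to 0.07), with the kinase Pdk4 at -0.11 ± 0.08. The metallothionein Mt2A, in both of these lists, had 0.13 ± 0.07. Circadian clock genes (16) had -0.03 (range -0.06 to -0.0122), where Dbp and Nr1d1, both transcription factors, had -0.16 ± 0.06 and -0.11 ± 0.06. Interferon-induced genes (11) had 0.02 (range -0.0094 to 0.07), with 6 slopes above 0 and 5 below. Their members of smallest p were the transcription factors Irf9 and Irf1 at 0.09 ± 0.05 and 0.10 ± 0.06. Cholesterol genes (13) had a median of 0.03 (range 0.0052 to 0.07), with the synthesis enzyme Dhcr7 at 0.09 ± 0.05.

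In none of the 36 lists did a gene pass, and the lowest adjusted p of a list member was 0.686. The median of 26 lists kept its sign in all 12 fits with 1 array left out, and that of 10 did not. Medians also moved with the normalization. Of the 36 medians, 20 were below 0 with quantile normalization, 26 with median centring and 29 with the values as deposited. Oxidative phosphorylation, proteasome, glycolysis and ribosomal medians were -0.08, -0.06, -0.06 and -0.07 with median centring, and -0.11, -0.09, -0.10 and -0.10 with the values as deposited, where the median of all genes was -0.03 and -0.06.

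**Figure D5:**
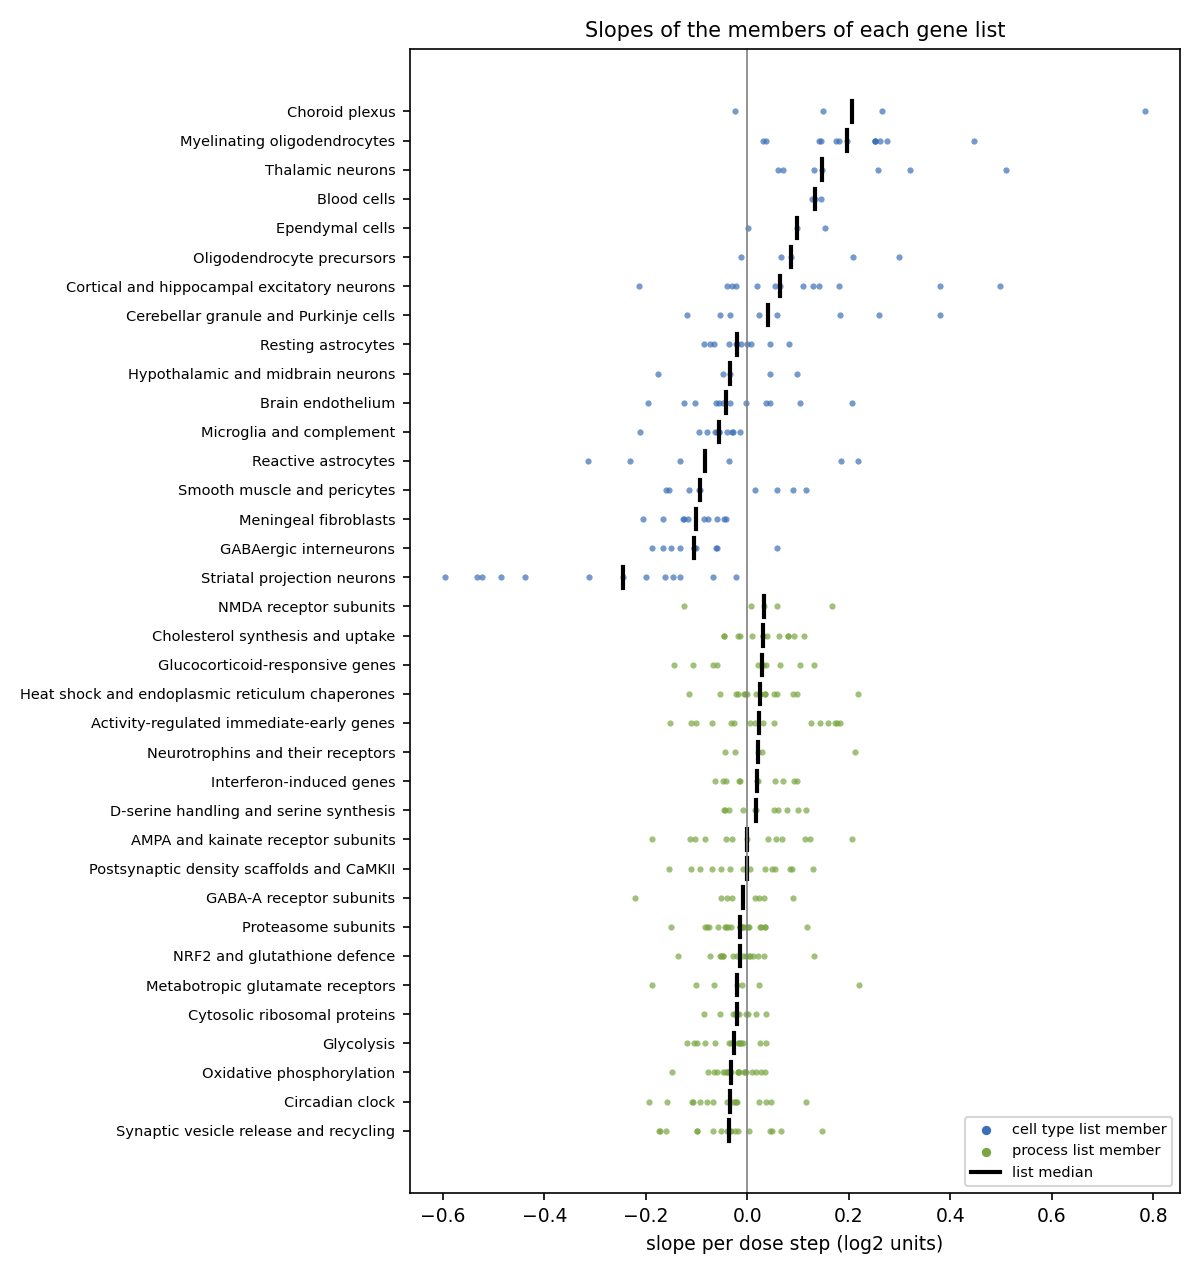
Slope per dose step (x axis, log2 units) of every measured member (points) of 36 gene lists, with the list median as a black bar, cell type lists in blue and process lists in green. Striatal and GABAergic lists lie furthest below 0, choroid plexus, myelin and thalamic lists furthest above, and most process lists are centred near 0.

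The slope over 5, 20 and 50 mg/kg was also set against the slope over vehicle, 200 and 500 mg/kg, which shares no array with it. Of 18626 probe sets, 0 (0%) passed for the difference of the slopes, with a smallest limma adjusted p of 0.143, and 1707 had an unadjusted p under 0.05. Kif5c, a neuronal kinesin heavy chain, had the smallest p, with a difference of 0.39 ± 0.08 (limma adjusted p = 0.143). It averaged 9.93 ± 0.15, 9.90 ± 0.10 and 10.26 ± 0.05 at 5, 20 and 50 mg/kg, and 10.58 ± 0.18, 10.27 ± 0.26 and 10.13 ± 0.08 in vehicle and at 200 and 500 mg/kg (SD, n = 4, and n = 3 at 500 mg/kg), and its 2 other probe sets had slopes of 0.16 and -0.09 over the lower doses. For Hr the difference was 0.42 ± 0.09 and for Cpsf7 it was 0.31 ± 0.06. Gfap, the filament protein of astrocytes, had 0.69 ± 0.15 (limma adjusted p = 0.161), averaging 10.23 ± 0.22, 9.96 ± 0.44 and 10.60 ± 0.29 at 5, 20 and 50 mg/kg and 10.61 ± 0.35, 9.89 ± 0.33 and 9.59 ± 0.21 in vehicle and at 200 and 500 mg/kg. No slope of the lower doses was therefore shown to differ from that of the other arrays.

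Some genes were looked at after their values were seen because their levels at the lower doses stood far from vehicle. Syt1, the calcium sensor of vesicle release, averaged 8.49 ± 0.19 in vehicle rats and 9.75 ± 0.28, 10.07 ± 0.14 and 9.62 ± 0.42 at 5, 20 and 50 mg/kg in the 23-array normalization, and its slope within the 3 doses was -0.07 ± 0.10 (limma adjusted p = 0.938). Svop, a vesicle membrane protein, averaged 7.16 ± 0.15 in vehicle rats and 8.26 ± 0.28, 8.37 ± 0.25 and 7.92 ± 0.19 at the 3 doses, with a slope of -0.17 ± 0.08. The nuclear kinase Hipk2 averaged 7.79 ± 0.19 in vehicle rats and 6.81 ± 0.13, 6.60 ± 0.34 and 7.38 ± 0.33, with a slope of 0.29 ± 0.11 (limma adjusted p = 0.756). In these 3 genes the 50 mg/kg mean was the nearest of the 3 doses to that of vehicle. At 200 and 500 mg/kg Syt1 averaged 9.03 and 8.93, Svop 7.56 and 7.65, and Hipk2 7.50 and 7.35. The beta-actin control ratio lay between 1.46 and 1.93 at the 3 doses and between 2.25 and 2.73 on the other arrays. Its part in these distances from vehicle was not tested.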

How the data were processed

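Total RNA of 24 rat forebrain pieces was measured on Affymetrix arrays, and the deposited table gives an intensity for each probe set, which per the submitters' processing notes came from GCOS, the scanner maker's expression software. Its version, settings and scaling target are not given in those sources. Array medians differed, so the 12 arrays of 5, 20 and 50 mg/kg were quantile normalized together, and log2(intensity + 16) was taken. The 57 Affymetrix control probe sets and the dimmest 40% of the rest were left out.

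Slopes over dose rank, curvature and differences between doses were fitted with limma 3.58.1 in R 4.3.3 (moderated tests with an intensity trend, two-sided, Benjamini-Hochberg over 18626 probe sets). A result passes at an adjusted p under 0.05, and 4 arrays per dose limit the precision. Folds use the same log2 scale and understate changes of dim probe sets. The difference of slopes used 23 arrays, normalized together. Separate animals are named for each array, and replicate numbers only name arrays. No batch was tested, since no batch label was used here.

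By GEO's platform annotation, 1 symbol was given to 20832 probe sets, several to 436 and none to 9831. Symbols were updated through the RefSeq table for 20764 by Entrez ID and 2 by accession, and kept for 66. A gene is represented by its brightest probe set. The 36 gene lists, like the choice of arrays, were made with earlier results of these data known, and so were the rules. Named genes are the 12 smallest slope p values in each direction, the 4 smallest p values of each other comparison, the 2 smallest slope p values of each list and 17 genes taken whatever their values, while others were chosen after their values were seen. Alternatives tried were other normalizations, pseudocounts, filters, moderation, array weights, dose scales, control ratios as covariates, 1 probe set per gene, fits with all 24 arrays and leaving out each array.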

Additional observations from a re-analysis of the deposited data

Results flagged for a closer look

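Over the named genes and the 3 control ratios, 387 sets of 4 arrays of 1 dose were looked at for an array far from the other 3 (Dixon's test of the gap to the nearest array against the range). Chance alone marks about 1 in 20 sets of genes not chosen by their values. A count of marks here cannot be set against that share. Some named genes were chosen after their values were seen, and markers of 1 cell type move together. In all, 30 sets were marked. On 50 mg/kg replicate 3 these were Ttr at 13.12, Slc17a6 at 9.97, Tcf7l2 at 9.63 and Nfasc at 9.39, all above the rest of the group, and Egr1 at 10.92, Slc1a3 at 11.64 and Fam193b at 8.10, all below it. On 50 mg/kg replicate 1 they were Drd1 at 9.35, Penk at 10.76, Gad2 at 8.16, C1qa at 9.36, Vtn at 7.36 and Rpl6 at 11.73 above, and Grin1 at 8.77 below. On 50 mg/kg replicate 2 they were Jmjd8 at 6.22 and Gnb3 at 6.83 below and Bgn at 7.32 above, and on replicate 4 Vps33a at 7.69 above. At 20 mg/kg, replicate 1 was high for Prox1 at 8.13 and Gabrb1 at 9.55 and low for Mog at 8.26 and Mbp at 12.82. Replicate 3 of that dose was high for Gss at 6.42, and replicate 4 was high for Gad1 at 11.19 and Gnb3 at 7.42 and low for Dusp1 at 8.77. At 5 mg/kg, replicate 1 was high for Cdca4 at 6.92 and low for Hr at 6.66 and Cpsf7 at 8.56, and replicate 3 was high for Grin1 at 9.42. All values are log2(intensity + 16).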

How the results depend on the processing

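The slope over dose rank passed for 0 probe sets under every setting run, leave-one-out fits included, and so did curvature and 20 against 5 mg/kg. For 50 against 20 mg/kg the values as deposited, with no step between arrays, gave 17 (1 above 0, Nts at 1.82, and 16 below, led by Vps41), and leaving out 1 array gave 0 to 1 (an unnamed probe set, without 50 mg/kg replicate 4). The F test gave 1 with the values as deposited (Vps41) and 0 to 1 with 1 array left out (Tom1l2, without 5 mg/kg replicate 4), and the difference of slopes 0 to 1 (Gja1, without 5 mg/kg replicate 1). Counts at an unadjusted p under 0.05 moved further. With the values as deposited they were 569 for the slope, 5314 for curvature, 6327 for 50 against 20 mg/kg, 1422 for 20 against 5 mg/kg, 3556 for the F test and 666 for the difference of slopes. Without a filter they were 1874, 1662, 1103 and 1865 for the slope, curvature, 20 against 5 mg/kg and the F test, and with array weights 1802, 836 and 1947 for the slope, 20 against 5 mg/kg and the F test. A 60% filter gave 347 for 20 against 5 mg/kg. With 1 probe set per gene, which tests fewer features, they were 592, 492, 753, 293, 589 and 844 in the order of the deposited values above. The beta-actin ratio as covariate gave 725 for the slope, against 1197. The higher and lower counts of the slope were 574 and 623, but 323 and 874 with median centring and 68 and 501 with the values as deposited, where the median gene slope was -0.03 and -0.06. Leave-one-out fits gave 937 to 1443 for the slope and a hexokinase ratio slope of 0.148 to 0.268, and that slope passed without 5 mg/kg replicate 1 and, at 0.266, with a pseudocount of 1. Some named slopes changed sign. Psat1 was -0.0312 with median centring, -0.0618 as deposited, -0.0057 with array weights, -0.0157 with the Gapdh covariate and -0.0136 to 0.0413 with 1 array left out. Sort1 was -0.0173, -0.0478 and -0.0007 to 0.0501 under the first 2 and the last of these. As deposited, Grin2b was -0.0178, Mbp -0.02 and Sc5d -0.0053. Bdnf was 0.0301 with the Gapdh covariate and Fos, at 0.14 in the reported fit, -0.0031 with the beta-actin covariate. With 1 array left out, Bdnf ran from -0.1411 to 0.0584, Hbb from -0.0046 to 0.22 and Ttr from -0.0511 (without 50 mg/kg replicate 3) to 1.0367. Causes of these moves were not tested. No paired analysis was possible because each array is a separate animal and replicate numbers only name arrays.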
